A study of Mus musculus with 6 samples.

Results

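The choroid plexus genes led by Ttr were taken as 10 genes named by symbol, Ttr, Kl, Folr1, Clic6, Otx2, Aqp1, Sostdc1, Enpp2, Prlr and Slc4a5, out of 52550 genes listed in the files. They are genes of the choroid plexus epithelium, and they were chosen by their counts in these same 6 libraries, whose split was known, so their levels in each library and their differences between groups are described here and support no claim about the choice. All 10 passed the filter on low counts, which kept 18795 genes. RNA was taken from the hippocampus of male C57BL / 6 mice of 8 to 10 weeks (C57B6/J in the study's methods), 24 h after the operation, with 1 library per mouse. There were 3 sham-operated mice (Sham1 to Sham3) and 3 with traumatic brain injury (TBI1 to TBI3). All mice underwent anesthesia, a scalp incision and a craniotomy over the right parietal bone, and only the TBI mice received the controlled cortical impact, in which a piston strikes the exposed cortex. The study states that whole hippocampus tissue was used, and it mentions tissue from both sides of the brain. The sources do not say whether a library holds the injured side, the other side or both.

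The choroid plexus is a vascular tissue of the brain ventricles, covered by an epithelium that secretes cerebrospinal fluid and forms the barrier between blood and that fluid. It is attached close to the fimbria of the hippocampus in the lateral ventricle. The epithelium moves sodium, bicarbonate, chloride and water into the ventricle, carries thyroid hormone and folate, and keeps the homeobox factor Otx2 into adult life.

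The libraries held 31630936 to 41771872 counts in all, and levels are given as CPM, counts relative to the library total after scaling with edgeR's TMM factors (0.970 to 1.02). Several libraries stood apart from the label of hippocampus or from each other. Of the 12 striatal genes, summed levels were 228 to 328 CPM in 5 libraries and 5439 CPM in TBI1, where the 18 hippocampal neuron genes summed to 991 CPM against 1512 to 2168 CPM elsewhere. All of these hippocampal markers had counts in each library. The 14 genes of mature oligodendrocytes summed to 3464 CPM in Sham2 and to 9839 to 12155 CPM in the others, and 14 genes of thalamus and habenula ran from 230 CPM in Sham2 to 1279 CPM in TBI3. Nothing in the labels ties these libraries to a batch. In tissue RNA, fewer cells of a type and less RNA per cell cannot be told apart.

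Ttr encodes transthyretin, the carrier of thyroxine and of retinol-binding protein that the epithelium secretes into the cerebrospinal fluid, and its gene lies on the plus strand of mouse chromosome 18. Its level was 1896 CPM in Sham1, 26.3 CPM in Sham2 and 1930 CPM in Sham3, and 201 CPM in TBI1, 2199 CPM in TBI2 and 225 CPM in TBI3. Sham1, Sham3 and TBI2 were high and Sham2, TBI1 and TBI3 were low, so each group held both high and low libraries. The highest library was 83.7 times the lowest, and the third highest was 8.44 times the fourth. The mean was 1284 ± 1089 CPM over the sham libraries (SD, n = 3) and 875 ± 1147 CPM over the TBI libraries (SD, n = 3), and the log2 fold change was -0.55 (standard error 1.45). Without TBI2 this value was -2.60, without Sham2 it was -1.13, and without TBI1 it was -0.084.

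**Figure D1:**
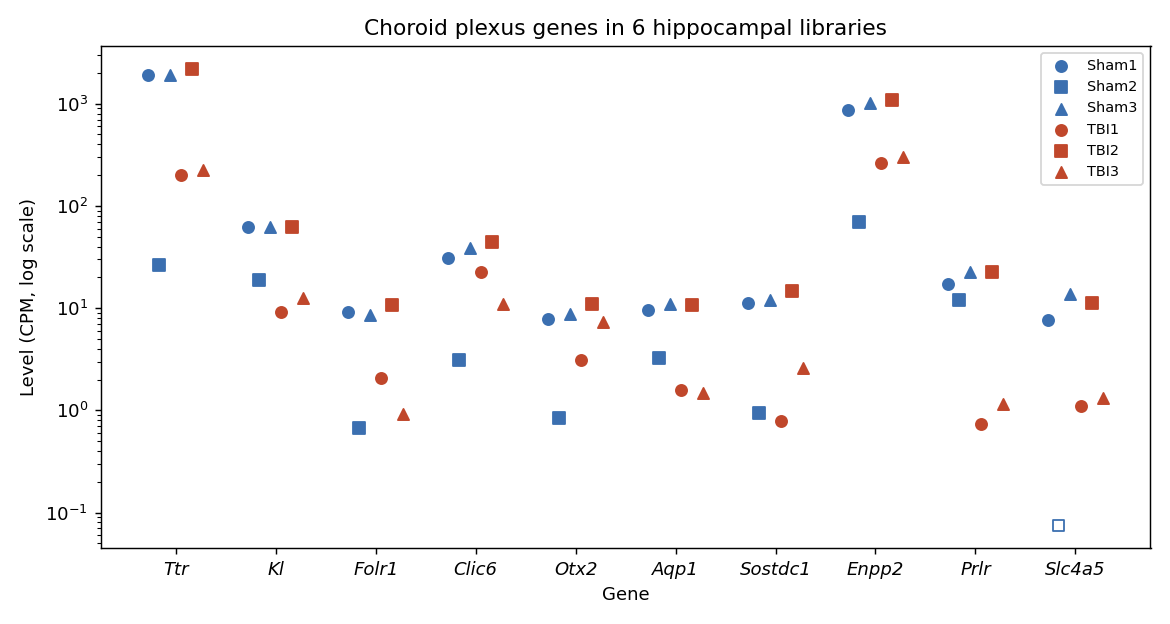
Level of each gene in CPM on a log scale, with 1 point per library; blue points are sham and red points TBI, and the shape gives the replicate. The open square marks Slc4a5 in Sham2, listed at 0 and drawn at the level of 3 counts; Sham1, Sham3 and TBI2 are the 3 highest libraries in each of the 10 genes, with Otx2 in TBI3 at 7.36 CPM just below Sham1 at 7.83 CPM.

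Among the other secreted proteins and carriers, Enpp2 was the most abundant. Enpp2 encodes autotaxin, which makes lysophosphatidic acid and is also made by mature oligodendrocytes, and it lies on the minus strand of chromosome 15 of GRCm38 from 54838901 to 54952892. Its level was 860 CPM in Sham1, 69.7 CPM in Sham2, 1019 CPM in Sham3, 264 CPM in TBI1, 1099 CPM in TBI2 and 303 CPM in TBI3. The order of the 6 libraries was that of Ttr, over a narrower range of 15.8 times. Sostdc1 (chromosome 12, 36314139 to 36318452, plus strand) encodes a secreted antagonist of BMP and Wnt signalling. It stood at 11.3, 0.947 and 11.9 CPM in Sham1 to Sham3 and at 0.784, 14.6 and 2.58 CPM in TBI1 to TBI3. TBI1 was its lowest library, below Sham2.

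Kl and Folr1 encode membrane proteins that are also shed or carried into the fluid. Kl (chromosome 5, 150952607 to 150993817, plus strand) encodes Klotho, the co-receptor of Fgf23. Its level was 61.6 CPM in Sham1, 18.9 CPM in Sham2 and 62.7 CPM in Sham3, and 9.19 CPM in TBI1, 62.6 CPM in TBI2 and 12.5 CPM in TBI3. Whereas Ttr had its lowest level in Sham2, Kl was lower in TBI1 and TBI3 than in Sham2. Folr1 (chromosome 7, 101858331 to 101870788, minus strand) encodes folate receptor alpha, which carries folate across the epithelium. It had 9.14, 0.673 and 8.52 CPM in Sham1 to Sham3 and 2.08, 10.8 and 0.927 CPM in TBI1 to TBI3.

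The channels and transporters of ions and water showed the same 3 high libraries. Aqp1 (chromosome 6, 55336432 to 55348555, plus strand), the water channel of the apical membrane, had 9.65, 3.24 and 10.9 CPM in Sham1 to Sham3 and 1.57, 10.7 and 1.46 CPM in TBI1 to TBI3. Slc4a5 (chromosome 6, 83219828 to 83304945, plus strand), an electrogenic sodium bicarbonate cotransporter, had 7.58 and 13.9 CPM in Sham1 and Sham3 and was listed at 0 in Sham2. A count of 0 there allows up to 3 counts, or 0.0748 CPM, for counting error only. TBI1 and TBI3 lay below Sham2 for Aqp1, as for Kl, and above it for Slc4a5. In TBI1 to TBI3 Slc4a5 had 1.10, 11.3 and 1.32 CPM. Clic6 (chromosome 16, 92485736 to 92541243, plus strand), a member of the chloride intracellular channel family, had 30.9, 3.14 and 39.1 CPM in Sham1 to Sham3 and 22.7, 44.6 and 10.9 CPM in TBI1 to TBI3. For Clic6 the gap was narrow, since Sham1 was 1.36 times TBI1.

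Otx2 and Prlr also had narrow gaps between the third and the fourth library. Otx2 (chromosome 14, 48657677 to 48673819, minus strand) encodes the homeobox factor, and its level was 7.83, 0.847 and 8.80 CPM in Sham1 to Sham3 and 3.14, 10.9 and 7.36 CPM in TBI1 to TBI3. Sham1 was only 1.06 times TBI3. Prlr (chromosome 15, 10177238 to 10349180, plus strand) encodes the prolactin receptor, which binds the pituitary hormone prolactin. It had 17.2, 11.99 and 22.8 CPM in Sham1 to Sham3 and 0.735, 22.8 and 1.15 CPM in TBI1 to TBI3. Prlr in Sham2 kept 69.6% of its level in Sham1, whereas Ttr in Sham2 had 1.39% of its own level in Sham1.

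The bases before the transcription start are shown for Kl, Aqp1 and Slc4a5, the genes matched by 1 window each, together with the stretch of an Otx2 window that holds the core of the OTX motif. The sequences are RefSeq windows on GRCm38.p6, 5′ to 3′ on the strand of the gene, and a motif is in capitals where a window holds one. The windows precede RefSeq starts, and the Slc4a5 window, the Otx2 window of the stretch and the Prlr window that holds TGTTTAC lie inside the GENCODE loci given above, downstream of their first base. Of the 10 genes 5 were matched, with 10 windows in all. Those not matched were Ttr, Folr1, Clic6, Sostdc1 and Enpp2.
Kl, chr5:150952357-150952606, plus strand: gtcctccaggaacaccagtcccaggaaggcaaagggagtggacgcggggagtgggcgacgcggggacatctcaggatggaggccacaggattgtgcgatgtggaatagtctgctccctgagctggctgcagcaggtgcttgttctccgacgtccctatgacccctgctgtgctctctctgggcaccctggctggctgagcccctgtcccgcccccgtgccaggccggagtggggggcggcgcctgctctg
Aqp1, chr6:55336049-55336298, plus strand: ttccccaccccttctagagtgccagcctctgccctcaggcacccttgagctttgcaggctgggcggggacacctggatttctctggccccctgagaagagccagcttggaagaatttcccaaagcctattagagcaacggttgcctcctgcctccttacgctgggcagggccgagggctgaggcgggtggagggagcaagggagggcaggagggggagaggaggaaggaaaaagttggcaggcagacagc
Slc4a5, chr6:83237125-83237374, plus strand: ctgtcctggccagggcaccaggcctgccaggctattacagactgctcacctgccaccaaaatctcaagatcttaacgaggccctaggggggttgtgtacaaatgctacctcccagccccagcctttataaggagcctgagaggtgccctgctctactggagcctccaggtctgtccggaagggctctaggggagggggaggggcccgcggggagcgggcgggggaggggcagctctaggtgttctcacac
Otx2, chr14:48665303-48665332, minus strand: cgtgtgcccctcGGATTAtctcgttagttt

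Windows of 250 bases were searched on both strands for TAATCC, the core bound by OTX factors, and TGTTTAC, a core bound by forkhead factors, which do not overlap each other. TAATCC was found in 1 of the 10 windows, on the other strand of an Otx2 window as GGATTA, at position -211 from the start. Of all 32851 windows of this length, 6.25% hold it. TGTTTAC was found in 1 of the 10, a Prlr window (chromosome 15, 10223656 to 10223905), at position -215, against 3.17% of all windows. Of the 10 windows that of Kl was richest in G and C at 66.8%, with 13 CG pairs, and those of Aqp1 and Slc4a5 had 62.0% and 62.8%.

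Set side by side, the 10 genes had the same 3 highest libraries, Sham1, Sham3 and TBI2, in 10 of 10 cases. Over all genes tested 6.53% had these 3 libraries on top, and nothing is read from the comparison because the genes were chosen with these levels known. Sham2 was the lowest sham library in 10 of 10, against 38.4% of all genes, and TBI2 the highest TBI library in 10 of 10, against 31.2%. Since the libraries fell into separate clusters for Ttr, no correlation over them is given as a result, and the likeness to Ttr used further on only ranks genes. Between Sham1 and Sham3 the ratio ran from 0.546 for Slc4a5 to 1.07 for Folr1. Between TBI1 and TBI3 it was wider from gene to gene, from 0.303 for Sostdc1 to 2.25 for Folr1.

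As a percent of the Ttr counts, the counts of most of the genes lay close together in Sham1, Sham3 and TBI2 and spread more in the other libraries. Kl counts were 3.25% of the Ttr counts in both Sham1 and Sham3 and 2.85% in TBI2, but 72.1% in Sham2, 4.56% in TBI1 and 5.58% in TBI3. For Enpp2 the share was 45.3%, 52.8% and 49.98% of Ttr in Sham1, Sham3 and TBI2, and 265%, 131% and 135% in Sham2, TBI1 and TBI3. Prlr ran from 0.909% to 1.18% of Ttr in the high libraries, and was 45.6% in Sham2, 0.365% in TBI1 and 0.513% in TBI3. Aqp1 was at 12.3% in Sham2 and between 0.489% and 0.779% elsewhere. The share of Clic6 was 1.63% to 2.03% in the high libraries, 11.95% in Sham2, 11.3% in TBI1 and 4.84% in TBI3. Slc4a5 ran from 0.400% to 0.719% outside Sham2. Of the summed counts of the 10 genes, Ttr made up 61.7% to 65.1% in Sham1, Sham3 and TBI2, 39.7% in TBI1 and in TBI3, and 19.4% in Sham2.

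**Figure D2:**
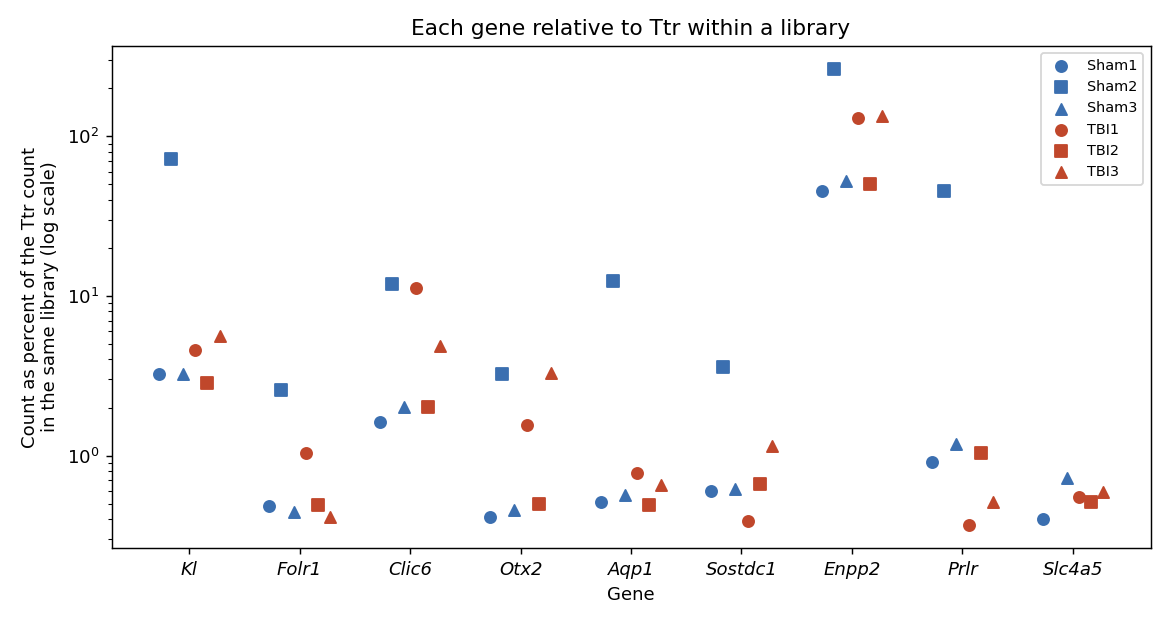
Count of each gene as a percent of the Ttr count in the same library, on a log scale, with 1 point per library (blue sham, red TBI, shape for the replicate). Sham1, Sham3 and TBI2 lie close together for the genes other than Slc4a5; Sham2 lies at 72.1% for Kl and 265% for Enpp2, and Slc4a5 in Sham2 is not drawn because its count is 0.

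Levels between genes were compared per kilobase of annotated exon. In Sham1 Ttr stood at 1599 CPM per kilobase and Enpp2 at 149, followed by Clic6 at 7.90, Kl at 6.60 and Sostdc1 at 6.36. Prlr, whose annotated exons span 15339 bases, was the lowest in Sham1 at 1.12 CPM per kilobase. In Sham2 Ttr stood at 22.1 and Enpp2 at 12.1 CPM per kilobase, and Kl at 2.03 and Aqp1 at 1.23 came next. In these data 3 of the genes share exonic bases with a neighbour, so that reads there could be counted for either gene, and the sources used here do not say whether counting used the strand. Enpp2 shares 345 bases (5.97%) with Gm26684 on the opposite strand. Otx2 shares 154 bases (3.65%) with Otx2os1 on the opposite strand and 168 (3.98%) with Gm49154 on its own, and Prlr shares 203 bases (1.32%) with Gm21973 on its own strand.

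Differences between the TBI and sham groups were tested by the quasi-likelihood method of edgeR over all genes. A gene was called when its p was below 0.05, its p after Benjamini-Hochberg adjustment was below 0.1 and it differed more than 1.5 times in either direction. Of the 10 genes 0 were called, as were 0 of the 18795 genes tested (0%). At an unadjusted p under 0.05 the count was 0 of 10, against 806 of all genes (4.29%). DESeq2 called 0 of the 10, against 0.221% of 20786 genes with its defaults and 0.229% of the filtered genes, and gave no p for Ttr because of its handling of outlying counts. Sham and TBI levels overlapped for all 10 genes, while 10.2% of all genes tested did not overlap. The log2 fold changes, positive where TBI was higher, had a median of -0.49 over the 10 genes and 0.0091 over all genes. In 8 of the 10 genes the value was below 0, against 48.6% of all genes.

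The sizes ran from -1.08 for Prlr (standard error 1.20), -0.79 for Aqp1 (0.874) and -0.77 for Kl (0.807) through -0.65 for Slc4a5 (1.61), -0.43 for Sostdc1 (1.19), -0.41 for Folr1 (1.13) and -0.23 for Enpp2 (0.956). Clic6 stood at 0.096 (standard error 0.873) and Otx2 at 0.29 (0.825). Adjusted over all genes, the p of edgeR lay between 0.982 and 0.996 for these genes and Ttr. In each of the 10 genes the difference was smaller than its standard error. Leaving out TBI2 gave the lowest value in 9 of the 10 genes, and without it Prlr was at -4.21, Aqp1 at -2.40 and Kl at -2.15. Without TBI1 they were at -0.54, -0.38 and -0.35. The median over the 10 genes was -2.21 without TBI2 and -0.074 without TBI1. Without TBI2, Clic6 was at -0.54 and Otx2 at -0.16, and without Sham2 they were at -0.43 and -0.23. Enpp2 was above 0 without Sham1, Sham3, TBI1 or TBI3, and 0.24 at the most.

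**Figure D3:**
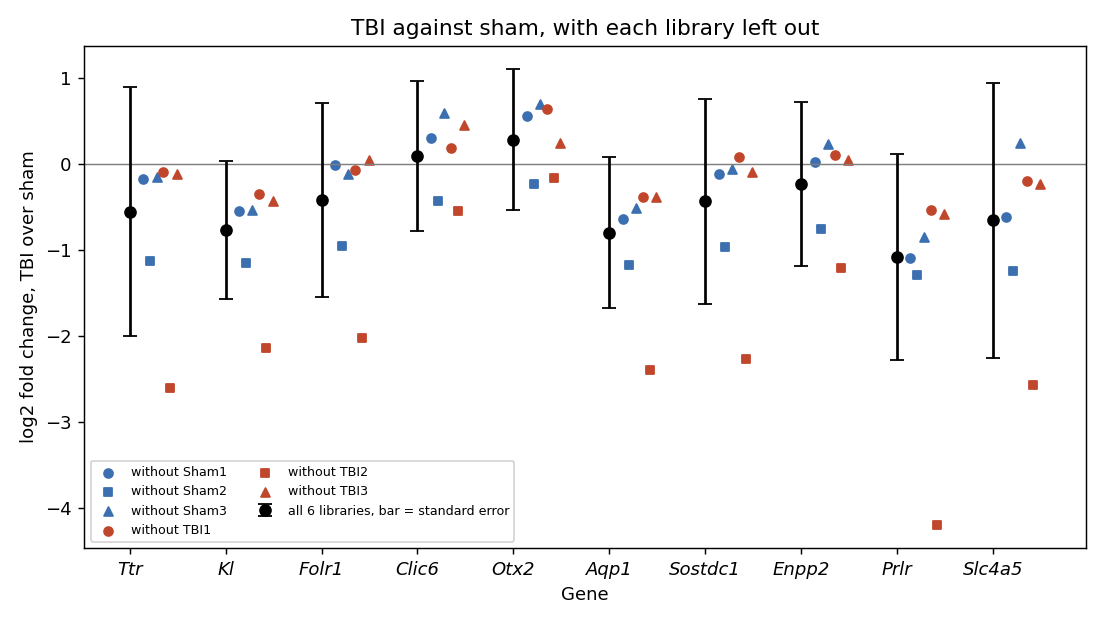
log2 fold change of TBI over sham for each gene, with black points for all 6 libraries and bars of 1 standard error, and coloured points for the fit with 1 library left out (blue sham, red TBI, shape for the replicate). The red squares, without TBI2, reach -2.60 for Ttr and -4.21 for Prlr.

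A list of 43 further genes of the choroid plexus was drawn up, of which 42 were in the files and passed the filter. In 29 of the 42 the 3 highest libraries were Sham1, Sham3 and TBI2, against 6.53% of all genes. Kcne2 and Kcnj13, potassium channel genes of the apical membrane named here after their values were seen, had the library order of Ttr. Kcne2 had 12.6, 0.224 and 16.0 CPM in Sham1 to Sham3 and 0.612, 20.4 and 1.24 CPM in TBI1 to TBI3. Kcnj13 had 11.3, 1.30 and 13.2 CPM in sham and 1.91, 16.0 and 2.02 CPM in TBI. Some of the abundant genes varied less. Slc4a2, an anion exchanger, ran from 35.1 to 60.0 CPM, Igfbp2, which binds insulin-like growth factors, from 46.4 to 84.7 CPM, and Cab39l from 29.9 to 60.5 CPM. Vat1l had its highest levels in TBI1 (129.8 CPM) and TBI3 (88.2 CPM), and Car12, a carbonic anhydrase, its highest in Sham2 (71.5 CPM). Igf2, also on the meningeal list, ran from 7.35 CPM in Sham2 to 152 CPM in Sham3. By edgeR's test 0 of the 42 were called, and at an unadjusted p under 0.05 it had 1 gene higher, Vat1l (log2 fold change 0.92), and 1 lower, Slc29a4 (-0.89), against 4.29% of all genes. Slc29a4 was named for its p. There were 33 values below 0 and 9 above, with a median log2 fold change of -0.32, which was 0.0040 without Sham3 and -1.02 without TBI2.

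**Figure D4:**
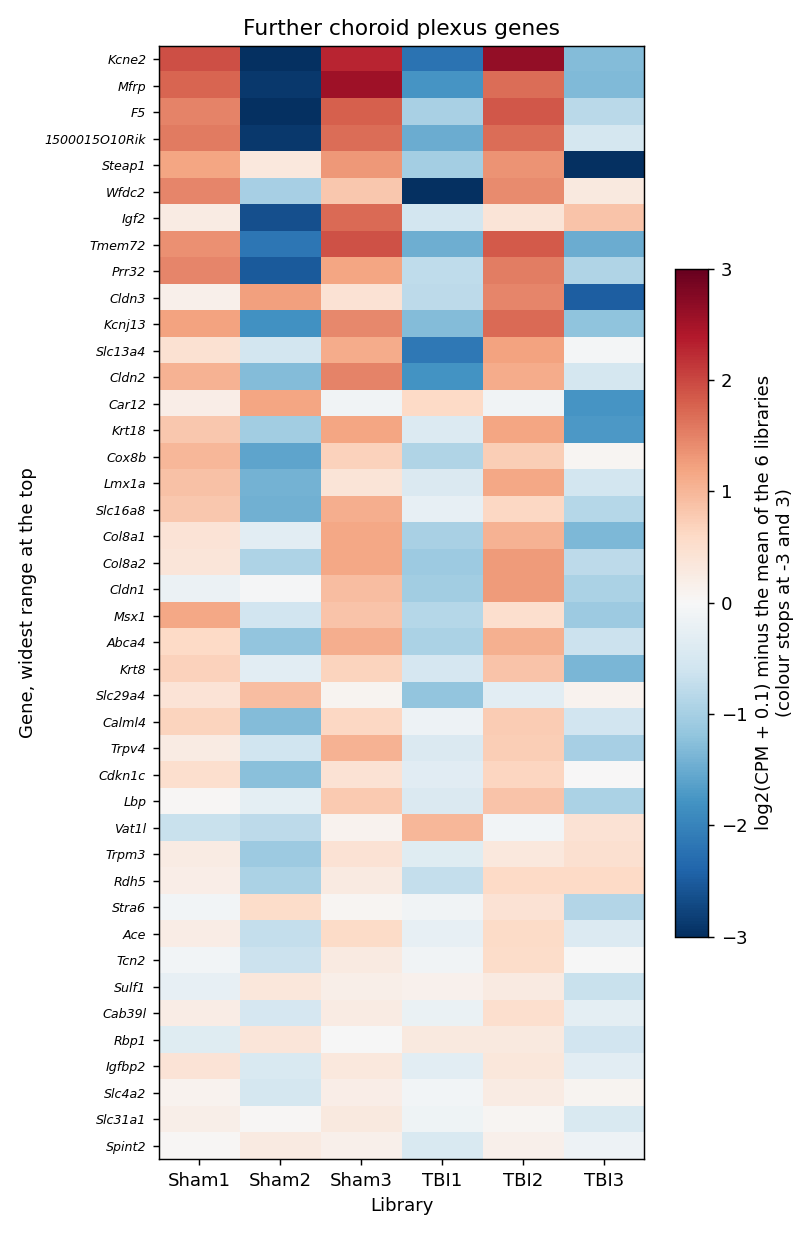
Levels of the 42 further genes in each library, as log2(CPM + 0.1) minus the mean of the 6 libraries, red for higher and blue for lower, with the genes of widest range at the top. Most genes of the upper rows are red in Sham1, Sham3 and TBI2 and blue in Sham2, TBI1 and TBI3; 29 of the 42 have those 3 libraries on top.

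Genes whose pattern over the 6 libraries was most like that of Ttr were ranked by Pearson's r of log2 CPM, as a measure of likeness and with no test, among 6094 genes whose standard deviation on that scale was at least 0.5. The 6 points are not evenly spread, since Sham2 lies far below TBI1 and TBI3 for Ttr, and these below the other libraries. Each library gives 1 point to every gene, and 50 genes had an r over 0.95. Enpp2 took rank 2 and Slc4a5 rank 9, and Folr1, Clic6, Sostdc1 and Otx2 took ranks 52, 57, 94 and 95. Kl, Aqp1 and Prlr came at ranks 468, 601 and 1500. Of genes outside the 10, F5 was the most alike (r = 0.999), coagulation factor V, with 16.1, 0.449 and 19.8 CPM in Sham1 to Sham3 and 2.84, 20.9 and 3.20 CPM in TBI1 to TBI3. It was followed by Prr32 (r = 0.997), Gja1 (r = 0.994), A530084C06Rik (r = 0.993), Rsph1 (r = 0.991), Acadsb (r = 0.991), 1500015O10Rik (r = 0.987), Calml4 (r = 0.984), Gm36908 (r = 0.984) and Adgrv1 (r = 0.982). Of these, F5, Prr32, 1500015O10Rik and Calml4 were on the list of further choroid plexus genes. Gja1, which encodes the gap junction protein connexin 43 of astrocytes, had 329, 99.2 and 326 CPM in Sham1 to Sham3 and 177, 323 and 202 CPM in TBI1 to TBI3, a range of 3.32 times. Rsph1, of motile cilia, had 9.21, 3.04 and 9.12 CPM in sham and 4.801, 8.53 and 4.61 CPM in TBI.

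Other genes of the same functions were described from lists. Of 32 genes of ion and water transport into the cerebrospinal fluid 0 were called, with 17 values above and 15 below 0, and a median of 0.016. The 3 high libraries of Ttr were on top in 4 genes, Kcne2, Kcnj13, Slc4a2 and Trpv4, against 6.53% of all genes, and these 4 are also on the list of further choroid plexus genes. Of the beta subunits of the sodium pump, Atp1b1 had a log2 fold change of -0.24 (standard error 0.141) and Atp1b2 one of 0.38 (0.170), both without overlap between the groups and neither at an unadjusted p under 0.05. In all 6 of the 32 genes did not overlap, against 10.2% of all genes tested. At an unadjusted p under 0.05 edgeR had 1 gene higher, Car3 (log2 fold change 1.83, standard error 0.632), a carbonic anhydrase at 0.125 to 1.24 CPM, and 1 lower, Slc4a7 (-0.53, 0.136), a sodium bicarbonate cotransporter, against 4.29% of all genes; both were named for their p. Of 24 genes that handle thyroid hormone, retinol and folate 0 were called, with 13 above and 11 below 0 and a median of 0.047. Thra, a thyroid hormone receptor, was at -0.25 (standard error 0.138), and Dio2, which activates thyroxine, at 0.35 (0.474). Among 27 partners of Klotho, autotaxin, prolactin receptor and Sostdc1, 25 passed the filter and 0 were called, with a median of 0.046. At an unadjusted p under 0.05 edgeR had 1 of them, Fgfr3, a receptor of fibroblast growth factors, with 109.4, 86.8 and 86.0 CPM in Sham1 to Sham3, 134, 107 and 143 CPM in TBI1 to TBI3 and a log2 fold change of 0.44 (standard error 0.161), against 4.29% of all genes at such a p. Fgfr1, the receptor that Klotho joins, stood at -0.65 (standard error 0.325) and had 97.6, 208 and 96.8 CPM in Sham1 to Sham3 and 72.8, 99.0 and 84.9 CPM in TBI1 to TBI3. Lpar1, a receptor of lysophosphatidic acid, had 26.5 CPM in Sham2 and 60.3 to 77.3 CPM elsewhere. The medians of these lists changed sign with 1 library left out. Without Sham1 that of ion and water transport was -0.058 and that of thyroid hormone, retinol and folate handling -0.12. The median of the partners was -0.068 without TBI2.

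Markers of neighbouring cells were set beside the choroid plexus genes. The 10 genes summed to 2911, 136 and 3128 CPM in Sham1 to Sham3 and to 506, 3486 and 566 CPM in TBI1 to TBI3. The 20 ependymal genes, all with counts in each library, summed to 115, 47.4 and 113 CPM in sham and 86.1, 104 and 82.7 CPM in TBI, and 12 of the 20 had the 3 high libraries of Ttr. Rarres2, the most abundant of them, had 11.8 CPM in Sham2 and 20.4 to 22.5 CPM elsewhere. Foxj1, the factor that drives motile cilia, had 19.8, 9.12 and 18.3 CPM in sham and 19.1, 18.2 and 13.9 CPM in TBI. Ccdc153 had 12.7, 3.46 and 9.20 CPM in sham and 8.30, 9.95 and 7.14 CPM in TBI, so Sham2 was the lowest library for each of these genes. The 18 genes of meningeal fibroblasts summed to 681, 816 and 1193 CPM in sham and 581, 1308 and 979 CPM in TBI, and 3 of the 18 had those libraries on top. Of the 18 genes of hippocampal neurons 7 had them on top, against 6.53% of all genes, and TBI2 was the highest TBI library for 14. For mature oligodendrocytes 0 of the 14 genes did, and their sum was lowest in Sham2 at 3464 CPM. Enpp2 was lowest in Sham2 as well, and the part of oligodendrocytes in its level was not tested. The striatal and thalamic lists, at 5439 CPM in TBI1 and 1279 CPM in TBI3, had 0 genes with the high libraries of Ttr, and their part in the levels was not tested. Of the 10 astrocyte genes 1, Gja1, had the high libraries of Ttr, and their sum was highest in Sham2 at 7649 CPM, against 5206 to 6450 CPM elsewhere. Gfap, the intermediate filament of astrocytes, had 623, 4055 and 632 CPM in Sham1 to Sham3 and 1478, 1240 and 541 CPM in TBI1 to TBI3. It alone gave 4055 of the 7649 CPM in Sham2, so the sum there does not stand for the other astrocyte genes. Aqp4, their water channel, was also highest in Sham2 at 401 CPM. Sham2 was the lowest sham library for 4 of the 10 genes, among them Gja1 at 99.2 CPM, against 38.4% of all genes. The sums of the 12 endothelial genes ran from 253 to 354 CPM. Erythroid genes, of which 7 of 8 passed the filter, summed to 193, 417 and 127 CPM in Sham1 to Sham3 and 118, 602 and 205 CPM in TBI1 to TBI3.

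**Figure D5:**
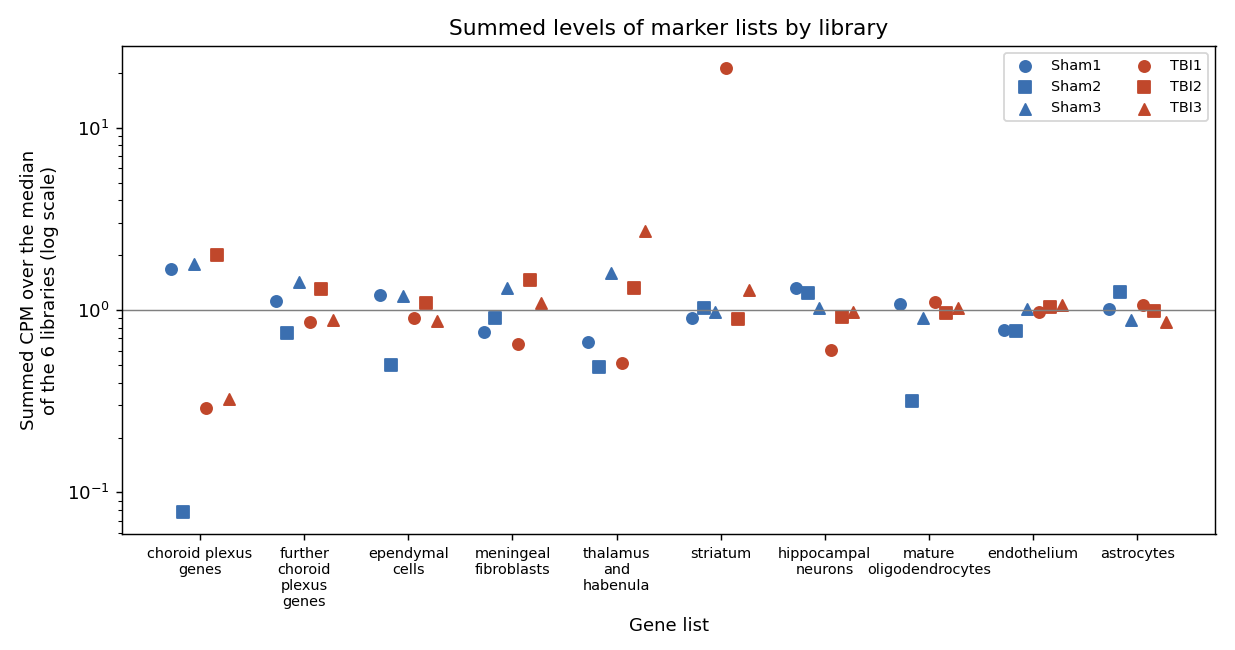
Summed CPM of each gene list in each library, divided by the median of the 6 libraries and on a log scale (blue sham, red TBI, shape for the replicate). The choroid plexus genes spread from 136 CPM in Sham2 to 3486 CPM in TBI2; the striatal list stands alone in TBI1 at 5439 CPM, and oligodendrocyte genes are low in Sham2 at 3464 CPM.

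The median log2 fold changes of the marker lists were -0.12 for ependymal cells, -0.26 for meningeal fibroblasts, 0.58 for thalamus and habenula, 3.20 for the striatum and -0.91 for hippocampal neurons. They were 0.34 for mature oligodendrocytes, 0.0997 for endothelium, 0.38 for erythroid cells and 0.056 for astrocytes. Several of these medians moved when 1 library was left out. Without TBI1 that of the striatum was 0.076 and that of hippocampal neurons -0.52, and without TBI3 that of thalamus and habenula was -0.23. Without Sham2 those of oligodendrocytes and of meningeal fibroblasts were -0.028 and 0.078, and without TBI2 that of erythroid cells was -0.56. The ependymal median ran from -0.49 without Sham2 to 0.11 without Sham1. That of astrocytes was 0.28 without Sham2, and that of endothelium 0.011 without Sham1. In each of these lists 0 genes were called by edgeR's quasi-likelihood test. DESeq2 called 1, the striatal gene Six3, named here for that call, against 0.221% of all genes with its defaults. At an unadjusted p under 0.05 edgeR had 6 of the 12 striatal genes, all higher, against 4.29% of all genes. Each of the other marker lists had at most 1 gene at such a p.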

How the data were processed

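Hippocampal RNA of 3 sham and 3 TBI mice was sequenced, with 1 library per mouse, and groups were taken from the sample titles. The authors used FastQC for read quality, HISAT2 for alignment (GRCm38) and StringTie for quantification, and the deposited files hold an estimated count per gene, as whole numbers. Low values pile up at multiples of 4 (4 occurs 5109 times and 3 occurs 2325 times), and the annotation release and the use of strand are not given in the sources used here. Of 52550 identifiers 52403 were matched to a symbol of GENCODE vM21 and 147 were not. Libraries held 31630936 to 41771872 counts, and 3 counts in Sham2 were 0.0748 CPM; such limits cover counting error only.

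Counts were fitted with edgeR 4.0.16 in R 4.3.3 (filterByExpr by group, TMM, quasi-likelihood test, Benjamini-Hochberg over 18795 genes), and the script was tested on simulated data. No exact permutation test was run, since no single value was independent of the choice of genes. DESeq2 1.42.0 served as an alternative. Log values for likeness used a prior count of 2. The 10 genes and all lists were chosen with earlier results of these data known. Other genes were named by a rule: the 10 most like Ttr, and the most abundant genes of each list (up to 10 for the further choroid plexus genes and 5 for the others). Those named outside it are said to be, and some genes the rule names are not reported here. Alternatives were other normalizations, filters and tools, each library left out, and a block for the replicate number. Gene loci came from GENCODE vM21 on GRCm38 and promoter windows from RefSeq on GRCm38.p6.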

Additional observations from a re-analysis of the deposited data

How the results depend on the processing

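In all 14 alternative settings 0 of the 10 choroid plexus genes were called, the adjusted p lay between 0.367 and 0.9999 where one was given. Under the 3 other normalizations and with each library left out, Sham1, Sham3 and TBI2 stayed the highest libraries among those kept for 10 of 10 genes. As deviations from the group means, 8 of 10, counting Ttr itself, had the signs of Ttr in each library, all but Clic6 and Otx2. Of 140 fold changes under these settings 12 changed sign. Over all genes the count called was 46 with DESeq2 defaults, 43 with DESeq2 on the filtered genes, and 3 with Sham2 and TBI1 both left out, a setting chosen after seeing the data, and it ran from 0 to 1 with single libraries left out. Either DESeq2 fit called 1 gene of the lists, Six3. With single libraries left out, the log2 fold change ran from -0.54 to 0.60 for Clic6 (-0.43 without Sham2), -1.21 to 0.24 for Enpp2 (0.024, 0.24, 0.11 and 0.055 without Sham1, Sham3, TBI1 and TBI3), -2.02 to 0.056 for Folr1, -0.23 to 0.70 for Otx2 (-0.16 without TBI2), -2.57 to 0.24 for Slc4a5 and -2.27 to 0.090 for Sostdc1. The median of the further choroid plexus genes ran from -1.02 to 0.0040. Clic6 stood at -0.34 without Sham2 and TBI1. The cause of these changes was not tested, and Ttr, Kl, Aqp1 and Prlr stayed below 0. The labels do not say whether the replicate numbers pair the mice. As deviations from the group means, same-numbered libraries had correlations of -0.0996, -0.065 and 0.153, and 1 of 3 sham libraries was closest to its own number. With 3 libraries per group these values cannot decide whether the mice were paired. With the replicate block 0 genes were called and Ttr stood at -1.60. Among the 100 genes most like Ttr were 6 of the other 9 choroid plexus genes, 6 with a prior count of 0.5 and 5 with Spearman's rho, where ranks are tied. With the TMM-scaled library size, Slc4a5 in Sham2 is shown only down to 0.0748 CPM.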
